A study of Mus musculus with 6 samples.

Results

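Branched-chain amino acid breakdown and fatty acid oxidation are described here in the rat ovary through 39 genes, taken from 22487 genes in the deposited table by matching gene symbols to a list of 40 enzymes and subunits. Of the 40 symbols, 39 matched 1 row each, and Bckdk, the kinase of the branched-chain keto acid dehydrogenase, is not analysed here. The 39 genes fall into 20 of branched-chain amino acid breakdown, 2 of ketone body use and 17 of fatty acid oxidation. The table's own pathway annotation placed 31 of them under valine, leucine and isoleucine degradation, a term with 54 genes in all, and 15 under fatty acid degradation, a term with 47 genes.

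Ovaries of adult female rats were studied by RNA sequencing, with 3 control and 3 exposed libraries. Control animals were wild type and untreated, and the exposed animals were wild type and received PM2.5, the fine fraction of airborne particulate matter, collected from a cowshed. All 6 titles give 30 days, of unstated meaning. The labels leave out strain, route and dose, and do not state whether each library came from a separate animal or from a pool, so p-values measure only the spread between these samples.

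Branched-chain amino acids (leucine, isoleucine and valine) are first transaminated to keto acids, which a mitochondrial dehydrogenase complex then decarboxylates in a step that commits them to breakdown. The products pass through separate arms to acetyl-CoA, acetoacetate or propionyl-CoA. Fatty acids enter the mitochondrion as carnitine esters and are shortened in a repeating spiral of dehydrogenation, hydration, a further dehydrogenation and thiolysis. Electrons taken up by the acyl-CoA dehydrogenases of both pathways reach the respiratory chain through the electron transfer flavoprotein. In the ovary, fatty acid oxidation supplies energy to the maturing oocyte and its cumulus cells, and steroid-making cells are rich in mitochondria.

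The libraries held between 47662338 and 60749578 counts, and genes averaging 0.5 FPKM (fragments per kilobase, scaled to library size) or more entered the test, 15303 in all, with each of the 39 members among them. Rat was taken as the species from the titles and from the Ensembl rat identifiers of all 22487 genes, although the organism label says mouse. Markers of the ovary were present, with all 10 granulosa cell markers and all 11 oocyte markers detected. Their summed levels varied widely between libraries, from 2175 to 8949 CPM (counts adjusted for library size with TMM factors) in controls and from 4171 to 11718 CPM in exposed ovaries for the granulosa markers. In bulk tissue, fewer cells of a type and less RNA per cell cannot be told apart.

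The comparison asks how these genes differed in the ovary after exposure to cowshed PM2.5. Bcat2, the mitochondrial branched-chain aminotransferase that takes the first step of the pathway, rose and was the member that passed the edgeR test over all genes. Its levels were 46.9, 48.3 and 44.3 CPM in the control libraries and 79.9, 83.1 and 84.1 CPM in the exposed ovaries (the PM2.5 libraries), in the order of the library numbers, which holds for all values below. The 3 libraries of each group lay close together, and every PM2.5 library was above every control. Bcat2 rose from 46.5 ± 2.02 to 82.4 ± 2.18 CPM (mean ± SD, n = 3 in each group), 1.77-fold, with a log2 fold change of 0.82 ± 0.12 (SE) and 0.0434 as the adjusted p (edgeR quasi-likelihood F test, Benjamini-Hochberg over every gene tested). Bcat2 (ENSRNOG00000020956) spans positions 96042625 to 96060007 of chromosome 1 on the plus strand, as the deposited table numbers them, and the genome build behind that numbering is not given. The log2 fold change was between 0.80 and 0.85 when any of the 6 libraries was left out, while edgeR's adjusted p then lay between 0.0708 and 0.243, so the call was lost in each case. Without the filter on low values edgeR's adjusted p was 0.0565.

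Over all 39 members, 1 was called by edgeR, where the called share of tested genes was 0.928% in either direction, 0.19% higher and 0.738% lower. An unadjusted edgeR p below 0.05 was reached by 7 members, all higher, or 17.9%, and by 20.9% of all genes tested. In the higher direction alone the share of all genes was 9.17%, and in the lower direction, where no member passed, it was 11.7%. The groups did not overlap in 10 members, all higher in PM2.5, or 25.6%, against 27.2% of all genes in either direction, 12.1% higher and 15.2% lower. The share of members apart in either direction was thus near the background. The fitted log2 fold change was above 0 in 27 members and below 0 in 12, where 50.4% of all genes were above, with a median of 0.19 over the members and 0.00 over all genes tested. That median was 0.05 without PM2.5 library 1 and 0.07 without control 2. The counts and medians describe the members and were not tested as a set.

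**Figure D1:**
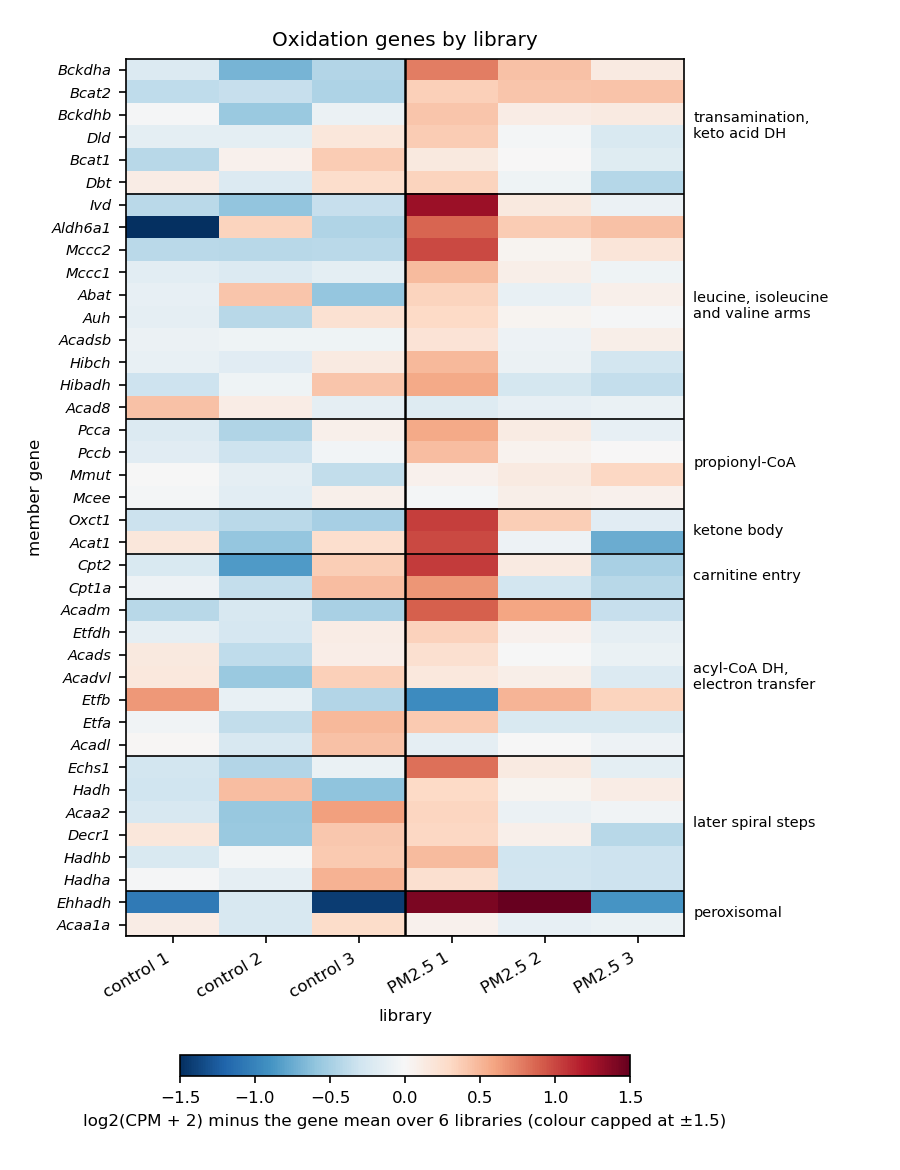
Level of each of the 39 members in each of the 6 libraries, as log2(CPM + 2) minus the gene's mean over the libraries, with rows grouped by step of the pathway and the vertical line between controls and PM2.5 libraries. PM2.5 library 1 is the highest of the 6 libraries for 23 members and control 2 the lowest for 19.

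Bcat1, the cytosolic form, had 131, 182 and 228 CPM in the controls and 193, 176 and 154 CPM in the exposed ovaries. The PM2.5 values lay inside the range of the controls, and its log2 fold change was -0.05 ± 0.22. Compared per length, the ratio of Bcat2 to Bcat1 FPKM was 0.830, 0.612 and 0.448 in the controls and 0.956, 1.09 and 1.26 in the PM2.5 libraries, so the mitochondrial form was below the cytosolic form in each control and above it in PM2.5 libraries 2 and 3.

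The branched-chain keto acid dehydrogenase, the committing enzyme, has an E1 component made of the Bckdha and Bckdhb products, an E2 core encoded by Dbt and an E3 subunit encoded by Dld that other dehydrogenases share. Bckdha had 136, 96.4 and 115 CPM in controls and 269, 213 and 172 CPM in exposed ovaries. Its lowest PM2.5 library was above its highest control, and its log2 fold change of 0.91 ± 0.21 did not pass over all genes (edgeR, adjusted p = 0.0996). Bckdhb had 36.0, 24.3 and 34.1 CPM and 49.5, 39.6 and 40.3 CPM in the respective groups, again without overlap, and a smaller log2 fold change of 0.46 ± 0.20 (edgeR, adjusted p = 0.254). Dbt at -0.09 ± 0.23 and Dld at 0.10 ± 0.20 had overlapping groups. The relative levels of these subunits are given next as ratios.

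The FPKM ratio of Bckdha to Dbt was 3.19, 2.84 and 2.42 in the controls and 5.37, 5.67 and 5.97 in the PM2.5 libraries, a mean of 2.82 ± 0.383 against 5.67 ± 0.301 (SD, n = 3). For Bckdha to Bckdhb the mean ratio was 2.24 ± 0.181 and 3.04 ± 0.391, also without overlap. In methylcrotonyl-CoA carboxylase the ratio of the Mccc2 to the Mccc1 subunit was 0.917 ± 0.0162 in controls and 1.31 ± 0.260 in PM2.5. Ratios of the 2 propionyl-CoA carboxylase subunits, Pccb to Pcca, overlapped at 2.78 ± 0.256 and 2.69 ± 0.260, as did those of the trifunctional protein subunits, Hadha to Hadhb, at 2.07 ± 0.238 and 1.86 ± 0.176. These 7 gene pairs, with the electron transfer flavoprotein described further on, were chosen after values of their genes had been seen, and with 3 libraries against 3 an exact two-sided permutation test cannot go below 0.10, so the ratios are given without a test.

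**Figure D2:**
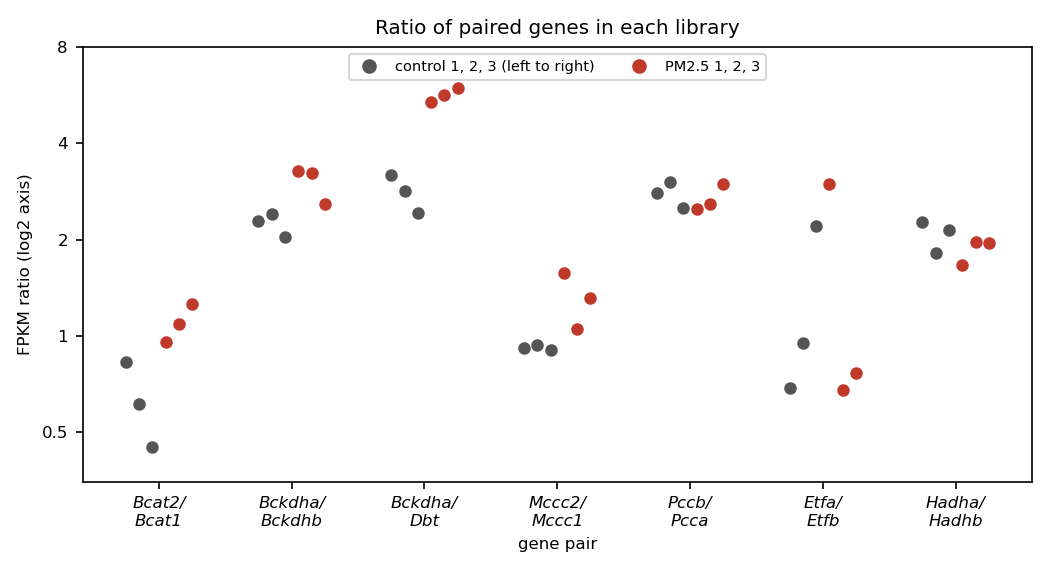
FPKM ratio of 7 gene pairs in each of the 6 libraries on a log2 axis, controls in grey and PM2.5 in red. The groups stand apart for Bcat2 to Bcat1, Bckdha to Bckdhb, Bckdha to Dbt and Mccc2 to Mccc1, and overlap for the other 3 pairs.

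In the leucine arm, Ivd encodes isovaleryl-CoA dehydrogenase, which takes the first step after the keto acid dehydrogenase. Ivd had 53.7, 46.8 and 56.0 CPM in controls and 176, 79.7 and 66.9 CPM in exposed ovaries. The groups did not overlap, and PM2.5 library 1 stood far above the rest. The log2 fold change was 1.05 ± 0.36 (edgeR, adjusted p = 0.178), and 0.49 without PM2.5 library 1. Mccc2, a subunit of the biotin-dependent carboxylase that follows, had 30.4, 30.2 and 30.4 CPM in controls, a range of less than 1 CPM, and 82.9, 41.8 and 46.5 CPM in exposed ovaries. Its log2 fold change was 0.91 ± 0.27 (edgeR, adjusted p = 0.141), and 0.54 without PM2.5 library 1. The other carboxylase subunit, Mccc1, had 37.9, 36.7 and 38.3 CPM and 60.0, 45.2 and 40.4 CPM, with a log2 fold change of 0.37 ± 0.18. Auh, the hydratase of this arm, was at 0.20 ± 0.20 with overlapping groups. Without PM2.5 library 1 the Mccc1 log2 fold change was 0.19. None of these 4 leucine genes passed over all genes by edgeR, and Mccc2 did by DESeq2 (values further on).

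The valine and isoleucine arms were mixed. Aldh6a1, the methylmalonate semialdehyde dehydrogenase that ends the valine arm, had 17.2, 70.9 and 40.1 CPM in controls and 104, 73.3 and 76.3 CPM in exposed ovaries. Its groups did not overlap, although control 2 came within a few CPM of PM2.5 library 2 and control 1 was far below every other library. Its log2 fold change was 0.98 ± 0.47 (edgeR, adjusted p = 0.283). Acad8, the isobutyryl-CoA dehydrogenase of the valine arm, had the lowest log2 fold change of the 39 members, -0.31 ± 0.17, and overlapping groups. Acadsb, which acts in the isoleucine arm, was at 0.15 ± 0.13, and the valine genes Hibch and Hibadh were at 0.13 ± 0.25 and 0.00 ± 0.31. Abat, better known as the transaminase of the neurotransmitter GABA, had the lowest level of the members, a mean of 1.02 FPKM, and a log2 fold change of 0.30 ± 0.62.

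Propionyl-CoA from valine, isoleucine and odd-chain fatty acids is carboxylated, turned to its mirror form and rearranged to succinyl-CoA. Pccb, a subunit of the carboxylase, had 82.0, 73.9 and 89.7 CPM in controls and 127, 96.0 and 92.5 CPM in exposed ovaries, and Pcca, the other subunit, was at a log2 fold change of 0.41 ± 0.23. Mmut, the cobalamin-dependent mutase, had 52.1, 47.7 and 40.2 CPM in controls and 55.2, 58.1 and 65.4 CPM in exposed ovaries. Pccb and Mmut were higher in every PM2.5 library by small margins, with log2 fold changes of 0.36 ± 0.17 and 0.35 ± 0.15, and did not pass (edgeR, adjusted p = 0.278 and 0.245). Mcee, the epimerase between them, was at 0.09 ± 0.20. In all, the groups were apart in 9 of the 20 branched-chain members, each higher in PM2.5, beside 27.2% of all genes apart in either direction and 12.1% apart and higher. Without PM2.5 library 1 the log2 fold changes of Pcca and Pccb were 0.19 and 0.20.

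**Figure D3:**
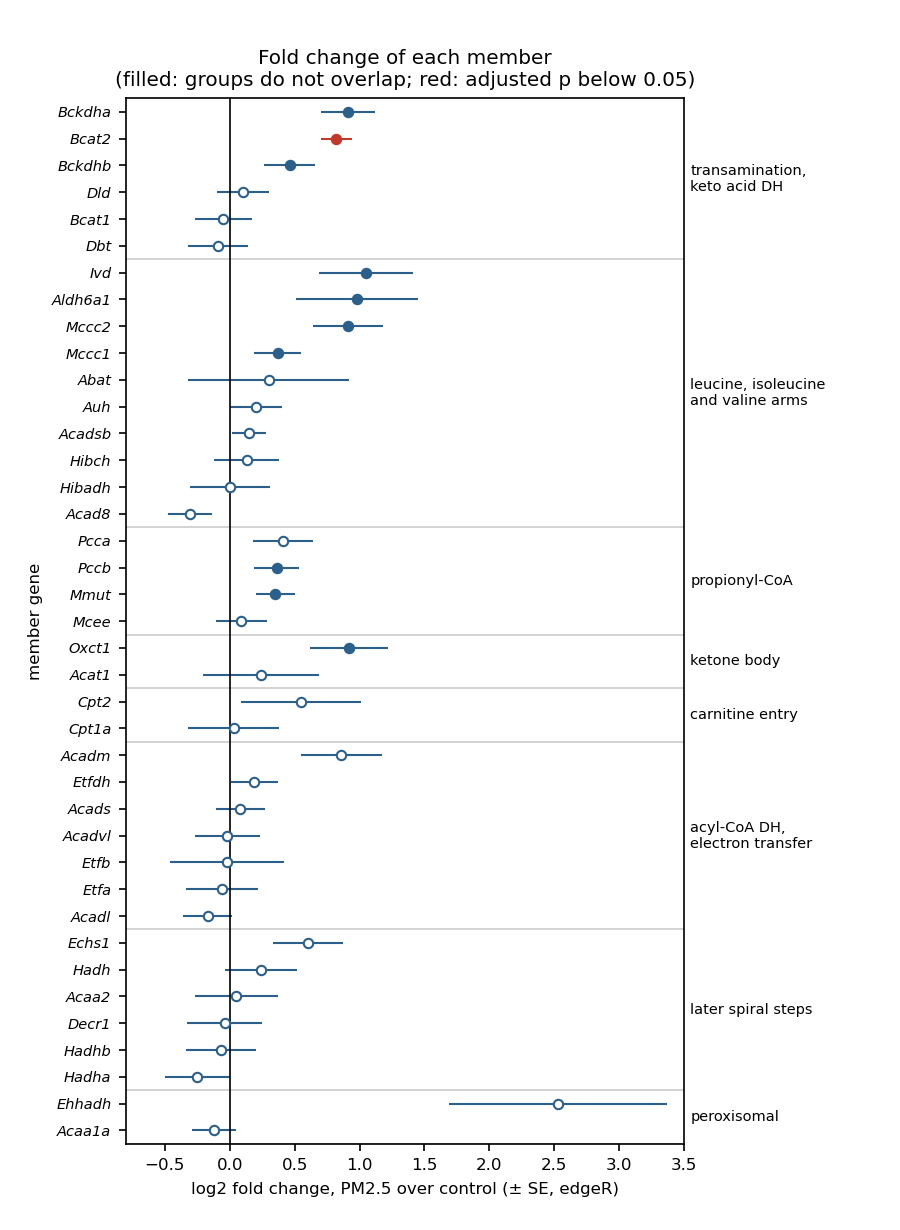
Log2 fold change of PM2.5 over control with its SE for each of the 39 members, grouped by step, where filled points mark members whose groups do not overlap and red marks an edgeR adjusted p below 0.05. The 10 filled points all lie to the right of 0 and Bcat2 is the red one.

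Of the genes of ketone body use, Oxct1, the transferase that activates acetoacetate for oxidation, had 90.4, 85.4 and 79.9 CPM in controls and 235, 147 and 100 CPM in exposed ovaries. The controls lay close together and every PM2.5 library was above them, with a wide spread among the PM2.5 libraries. The log2 fold change was 0.92 ± 0.30 (edgeR, adjusted p = 0.161) and 0.54 without PM2.5 library 1. Acat1, the mitochondrial acetoacetyl-CoA thiolase that serves ketone bodies and isoleucine, had 308, 183 and 326 CPM in controls and 545, 260 and 162 CPM in exposed ovaries. PM2.5 library 1 was the highest and PM2.5 library 3 the lowest of all 6, so the groups overlapped fully, with a log2 fold change of 0.24 ± 0.45.

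None of the 17 fatty acid members passed over all genes by edgeR, which called 0.928% of all genes tested. DESeq2 called 1 of them, Ehhadh, beside 11.5% of all genes in either direction. None of the 17 had groups that stood apart, beside 27.2% of all genes in either direction. Their log2 fold changes were above 0 in 9 and below 0 in 8, with a median of 0.03. Cpt1a, the liver-type carnitine palmitoyltransferase that admits long-chain fatty acids to the mitochondrion, had 74.9, 61.6 and 110 CPM in controls and 127, 65.0 and 58.8 CPM in exposed ovaries. PM2.5 libraries 2 and 3 lay within or below the controls, and the log2 fold change was 0.03 ± 0.35. Cpt2, which reverses the carnitine transfer inside, was at 0.55 ± 0.46, and at 0.02 without PM2.5 library 1.

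Among the acyl-CoA dehydrogenases, which differ in the chain length they accept, Acadm for medium chains had 76.4, 87.1 and 72.9 CPM in controls and 194, 156 and 80.3 CPM in exposed ovaries. PM2.5 libraries 1 and 2 were above every control, and PM2.5 library 3 lay among them. Its log2 fold change was 0.86 ± 0.31 (edgeR, adjusted p = 0.188), and it was 0.58 without PM2.5 library 1. Acadl for long chains had 119, 99.3 and 161 CPM in controls and 107, 117 and 112 CPM in exposed ovaries, and its PM2.5 values lay inside the control range. Acadvl for very long chains had 208, 126 and 239 CPM and 208, 197 and 161 CPM, with a log2 fold change of -0.02 ± 0.25, and Acads for short chains was at 0.08 ± 0.19.

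Electrons from these dehydrogenases pass to the electron transfer flavoprotein, a pair of the Etfa and Etfb products, and on through Etfdh. Etfb had 84.0, 48.7 and 38.2 CPM in controls and 26.3, 75.6 and 66.9 CPM in exposed ovaries. Etfa had 143, 115 and 209 CPM and 195, 127 and 127 CPM, so the libraries highest in Etfa, control 3 and PM2.5 library 1, were the lowest in Etfb. The FPKM ratio of Etfa to Etfb ran from 0.676 in PM2.5 library 2 to 2.99 in PM2.5 library 1 and was 2.20 in control 3, the widest of the 7 pairs as the highest over the lowest ratio. The groups overlapped in both genes, with log2 fold changes of -0.06 ± 0.28 and -0.02 ± 0.44, and Etfdh was at 0.19 ± 0.18.

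The later steps of the spiral held the most abundant members. Acaa2, the mitochondrial thiolase, had the highest mean of the 39, 166 FPKM, with 269, 214 and 488 CPM in controls and 398, 300 and 308 CPM in exposed ovaries. Control 3 was the highest of the 6, and the log2 fold change was 0.05 ± 0.32. Hadha, the alpha subunit of the trifunctional protein, had 390, 358 and 568 CPM in controls and 466, 322 and 317 CPM in exposed ovaries, and Hadhb, its beta subunit, had a log2 fold change of -0.07 ± 0.27 beside -0.25 ± 0.25 for Hadha. Decr1, a reductase needed for unsaturated fatty acids, had 183, 110 and 216 CPM and 202, 171 and 122 CPM, with a log2 fold change of -0.04 ± 0.29. Echs1, the short-chain hydratase used by both pathways, had 111, 98.3 and 125 CPM in controls and 240, 147 and 121 CPM in exposed ovaries. PM2.5 libraries 1 and 2 were above the controls and PM2.5 library 3 was below control 3, and its log2 fold change of 0.60 ± 0.27 did not pass (edgeR, adjusted p = 0.256) and was 0.27 without PM2.5 library 1. Hadh, the short-chain hydroxyacyl dehydrogenase, was at 0.24 ± 0.28.

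Of the peroxisomal members, Ehhadh, the bifunctional enzyme of peroxisomal oxidation, had the largest log2 fold change of the 39 and rested on a pair of libraries. Ehhadh had 4.73, 9.94 and 3.23 CPM in controls and 35.4, 62.1 and 5.62 CPM in exposed ovaries, so PM2.5 libraries 1 and 2 were far above the controls while PM2.5 library 3 lay within them. The log2 fold change was 2.53 ± 0.84 (edgeR, adjusted p = 0.168) and was 1.79 without PM2.5 library 2. The same 2 libraries had the highest summed levels of several marker lists, that of the ovary's own surface epithelium included. The 4 tested oviduct epithelium markers summed to 39.1, 142 and 12.3 CPM in controls and 231, 275 and 47.3 CPM in exposed ovaries. For the 6 tested ovarian surface epithelium markers the sums were 111, 208 and 52.5 CPM and 397, 474 and 198 CPM. The 8 smooth muscle markers summed to 1070, 1128 and 625 CPM and to 2202, 3952 and 845 CPM, and the 10 tested adipocyte markers to 114, 167 and 197 CPM and to 272, 229 and 155 CPM. Gene by gene, PM2.5 libraries 1 and 2 were the 2 highest of the 6 for 7 of the 8 smooth muscle markers, 2 of the 5 oviduct markers and 2 of the 12 adipocyte markers, Adipoq and Plin4, so most adipocyte markers did not share this order. Most surface epithelium markers did not share it either. Krt18 and Krt8 did, while Wt1, Msln, Cdh1, Upk3b and Lgals7 did not. For whole lists, the 5 oviduct markers with a row, of 7 named, ranged from 12.3 to 149 CPM in controls and from 47.7 to 280 CPM in exposed ovaries. The 12 adipocyte markers ranged from 114 to 197 and from 156 to 273 CPM. No marker with a row in these lists was at 0 in all libraries. Their part in the Ehhadh values was not tested. Acaa1a, the peroxisomal thiolase, was at -0.12 ± 0.17.

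**Figure D4:**
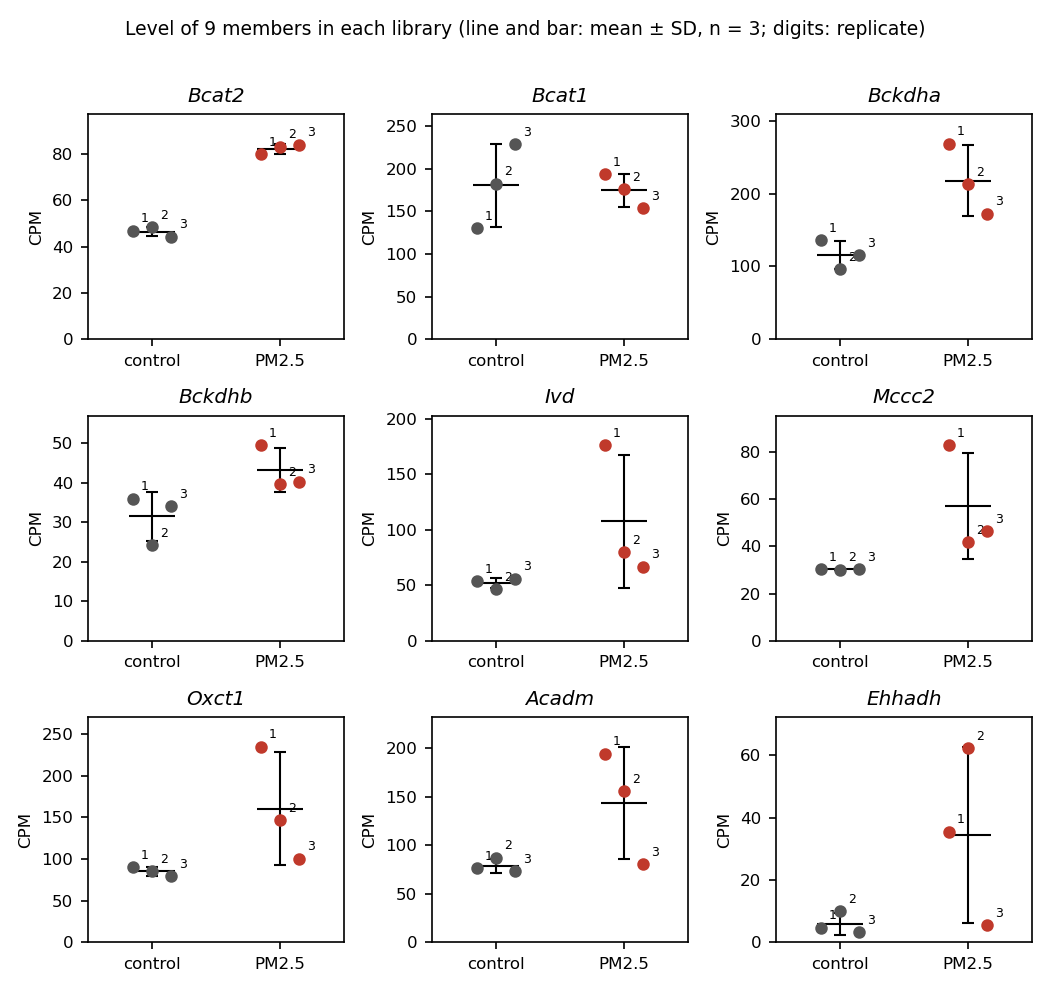
CPM of 9 members in each library, with replicate numbers beside the points and the mean ± SD (n = 3) of each group. Bcat2 shows tight groups that are apart, Bcat1 shows overlapping groups, Ivd, Mccc2 and Oxct1 are highest in PM2.5 library 1, and Ehhadh is high in PM2.5 libraries 1 and 2.

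Members tended to vary together across the libraries, and PM2.5 library 1 was the highest for 23 of the 39. Each member's log2(CPM + 2) was set against the mean of the other members over the 6 libraries. The Pearson correlations had a median of 0.63 and were above 0.8 in 14 of the 39 and below 0 in Acad8, Etfb and Acadl. They were not computed for other genes, and all genes of a library share its depth and tissue make-up. The 2 highest libraries were control 3 and PM2.5 library 1 in 16 of the 39 members, or 41.0%, against 9.5% of all genes tested, a pairing picked after the values were seen. It held for 9 of the 17 fatty acid members, among them Acaa2, Hadha, Hadhb and Cpt1a, and for 6 of the 20 branched-chain members, among them Dbt and Bcat1. Summed over the 17 fatty acid members the level was 2243, 1905 and 2921 CPM in controls and 3035, 2346 and 2042 CPM in exposed ovaries, with overlap. Summed over the 20 branched-chain members it was 1284, 1295 and 1513 CPM in controls and 2106, 1573 and 1456 CPM in exposed ovaries, where PM2.5 library 3 was below control 3.

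The same 2 libraries had the highest summed level of luteal cell markers and the lowest of granulosa cell markers. The 10 luteal markers were all detected, at 16016 to 32226 CPM in controls and 10801 to 25702 CPM in exposed ovaries, and the 9 that were tested summed to 32224 CPM in control 3, 25701 CPM in PM2.5 library 1 and between 10800 and 16347 CPM in the other 4. The granulosa markers summed to 2175 CPM in control 3, 4171 CPM in PM2.5 library 1 and between 7269 and 11718 CPM in the other 4. Gene by gene, they were the 2 highest for 5 of the 10 luteal markers and the 2 lowest for 7 of the 10 granulosa markers. Akr1c3, a luteal steroid-metabolizing enzyme, went otherwise, with 4585, 4244 and 9536 CPM in controls and 296, 1336 and 2000 CPM in exposed ovaries, lowest in PM2.5 library 1. Lhcgr, the receptor of luteinizing hormone, was lowest in control 3, and Cyp11a1 was highest in PM2.5 libraries 1 and 2. Rln1 rose, with 17.3, 7.94 and 44.4 CPM in controls and 413, 562 and 413 CPM in exposed ovaries (edgeR, adjusted p = 0.0442). Lhx9, at a mean of 0.41 FPKM too low to enter the test, was lower in every PM2.5 library. Bcat2 did not follow the order of the luteal sum, since control 3 was its lowest library. In the granulosa sum control 3 was likewise the lowest and PM2.5 library 3 the highest, as in Bcat2. PM2.5 library 1, however, was below controls 1 and 2 in that sum and above them in Bcat2. The part of cell make-up in the members' levels was not tested.

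**Figure D5:**
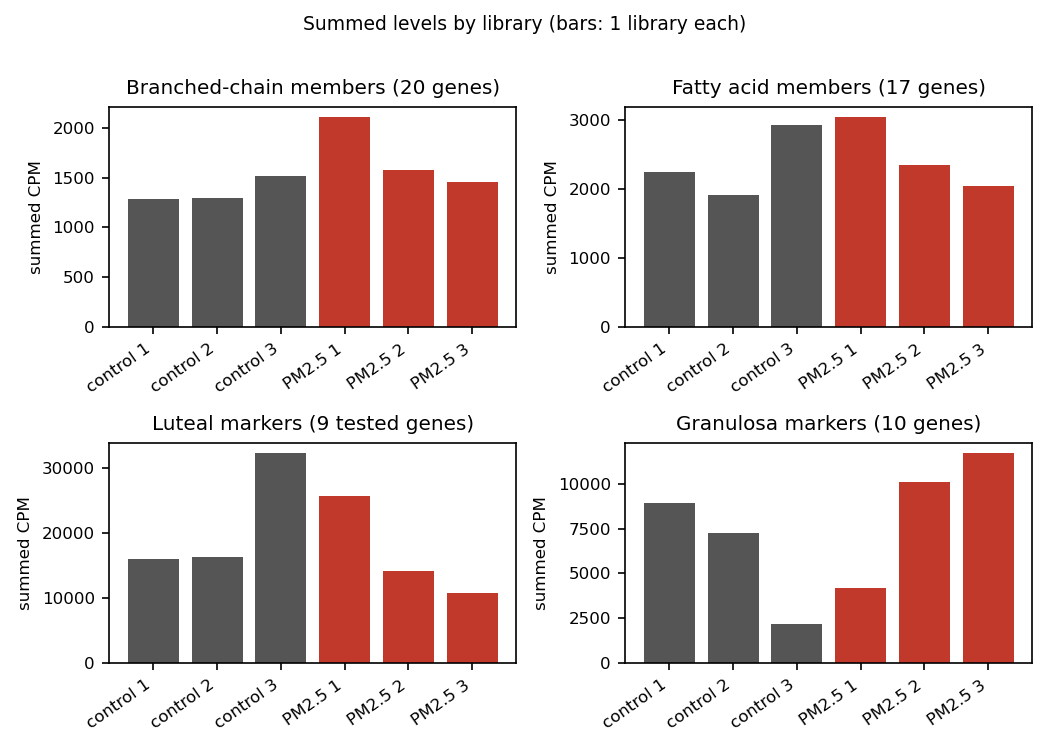
Summed CPM of the 20 branched-chain members, the 17 fatty acid members, the 9 tested luteal markers and the 10 granulosa markers in each library, 1 bar a library. Control 3 and PM2.5 library 1 are the highest for the fatty acid members and luteal markers and the lowest for the granulosa markers.

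Genes around the 2 pathways, from 6 lists of transporters, activating enzymes, further oxidation enzymes and regulators, split about evenly. Of 84 genes listed, 75 were tested, with 39 above and 36 below 0. By edgeR none passed the 0.05 threshold after adjustment over the whole table, and 19 had an unadjusted edgeR p below 0.05, 11 higher and 8 lower, or 25.3% beside 20.9% of all genes.

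In the list of fatty acid uptake, activation and carnitine shuttle, with 19 tested, the smallest p values belonged to Acot2 and Fabp5. Acot2, a mitochondrial thioesterase that frees fatty acids from coenzyme A, had 21.1, 16.0 and 18.9 CPM in controls and 87.0, 57.2 and 38.8 CPM in exposed ovaries, without overlap, and a log2 fold change of 1.71 ± 0.30 (edgeR, adjusted p = 0.0596). Fabp5, a fatty acid binding protein, had 31.6, 41.3 and 29.8 CPM and 10.1, 16.8 and 18.3 CPM, lower in every PM2.5 library, with a log2 fold change of -1.18 ± 0.27 (edgeR, adjusted p = 0.0963). In that list 6 genes were higher and 3 lower at an unadjusted edgeR p below 0.05, together 47.4% of the 19, beside 20.9% of all genes (9.17% higher and 11.7% lower).

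Among 16 genes of branched-chain amino acid transport and control, the 2 with the smallest p were Mmachc, which processes cobalamin for Mmut, at -1.04 ± 0.25, and Gcdh, the glutaryl-CoA dehydrogenase of lysine breakdown, at 0.46 ± 0.14. Mmachc had 14.3, 14.9 and 15.2 CPM in controls and 8.91, 5.82 and 6.87 CPM in exposed ovaries, below every control, while Mmut itself lay above every control (edgeR, adjusted p = 0.103 for Mmachc). For the 10 tested of the further mitochondrial enzymes these were Acad9, a dehydrogenase that also assembles respiratory complex I, at 0.60 ± 0.19, and Acat2, the cytosolic thiolase, at -0.60 ± 0.32.

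The 15 tested peroxisomal genes had 2 higher and 1 lower at an unadjusted edgeR p below 0.05, or 20%, near the 20.9% of all genes. Phyh, which starts the alpha-oxidation of branched fatty acids, was at 0.64 ± 0.17 and Amacr, the racemase that readies branched fatty acids for oxidation, at -1.05 ± 0.28, the 2 smallest p values of that list. Of 6 ketone body genes, Slc16a6, a transporter of ketone bodies, was at -1.08 ± 0.33 and Bdh2, a dehydrogenase, at 0.45 ± 0.24. Of the 9 tested regulators of fatty acid oxidation, the smallest p values belonged to Lpin1, a coactivator and phosphatidate phosphatase, at -0.99 ± 0.29, and Ppard, the nuclear receptor PPAR-delta, at -1.09 ± 0.38. Pparg, the receptor PPAR-gamma, was at -0.34 ± 0.21, and Nrip1, a corepressor of oxidation genes, at 0.70 ± 0.31. Pparg and Nrip1 are named after their values were seen, and none of these genes passed over all genes by edgeR.

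The 25 genes of the citrate cycle and mitochondrial content, set beside the members as other mitochondrial genes, had a median log2 fold change of 0.09, with 16 above and 9 below 0. The groups were apart in 7 of the 25, or 28%, near the 27.2% of all genes. Of these, 6 were higher and 1 lower, beside 12.1% of all genes apart and higher and 15.2% apart and lower. So this list leaned higher too, as the members did. Among the 6 was Sdhb, a subunit of succinate dehydrogenase, with 196, 158 and 168 CPM in controls and 402, 300 and 220 CPM in exposed ovaries. The Sdhb log2 fold change was 0.82 ± 0.24, short of the threshold (edgeR, adjusted p = 0.137). PM2.5 library 1 had the highest summed level of this list too, 6054 CPM against 4149 to 4952 CPM in the other 5.

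With DESeq2 in place of edgeR, 5 members were called, all higher, beside 11.5% of all genes in either direction and 4.78% higher. They were Bcat2 (DESeq2 adjusted p = 3.74e-08), Bckdha (0.00371), Ehhadh (0.0104), Mccc2 (0.0301) and Oxct1 (0.0402), with log2 fold changes from 0.84 to 2.54. DESeq2 called 1767 genes over the whole table where edgeR called 142.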

How the data were processed

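Poly(A) RNA of 6 ovary samples was sequenced from both ends with a dUTP protocol that marks strand, per the labels' protocols. Per the submitters' processing notes, HISAT2 2.2.1, StringTie 2.1.6 and cutadapt 1.9 were among the tools, with no role stated. Genome build, annotation release and the strand option used in counting are not given, and reads of genes that overlap, antisense pairs included, may be shared. Per the file headers, each library has a column of FPKM and a column of counts, which are whole numbers. Among counts of 1 to 20, multiples of 4 made up 31.8% to 33.9% by library, against 25% if all values were equally common. The reason was not tested.

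Counts were tested with edgeR 4.0.16 in R 4.3.3 (TMM factors, glmQLFit, glmQLFTest, PM2.5 over control, two-sided, Benjamini-Hochberg at 0.05 over 15303 genes). SE values are the log2 fold change over the root of the F statistic. FPKM values, normalised by the authors, served the filter, levels between genes, ratios and the limma 3.58.1 alternative. Alternatives were DESeq2 1.42.0, a robust fit, other filters and scalings, fits without each library and 1 with a replicate block. Values in every library are given for members with an adjusted p below 0.05, the 12 with the smallest p, the 6 with the highest FPKM and 9 control steps, and for a few others chosen after their values were seen. Of each pathway list the 2 with the smallest p are named. The members and lists were chosen with earlier results of these data known. On simulated counts for the 15303 genes, edgeR recovered 20% of 50 genes changed 2-fold, 62% at 4-fold, 82% at 8-fold and 94% at 16-fold, with 5 false calls among 134. Each gene was simulated independently, without shifts shared by many genes of a library, so the false calls do not cover such shifts. Libraries of a group differed by chi-square values of 134 or more per degree of freedom, so no library repeats another of its group. Sequences of rat genes were not used here.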

Additional observations from a re-analysis of the deposited data

How the results depend on the processing

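Of all genes, 142 were called in the design as planned. DESeq2 called 1767, filterByExpr in place of the FPKM filter left 87 and no filter at all left 8. The cause was not tested. Without 1 library there were 0 to 7 calls, from fewer samples. Limma, the robust fit, the 1 FPKM filter and the scalings gave 130 to 180. The members changed numbered 1, and 5 by DESeq2, 0 with unfiltered genes and 0 after removal of any 1 library. With a library left out, 5 to 9 members had an unadjusted edgeR p below 0.05, beside 12.4% to 22.9% of all genes. Bcat2, Bckdha, Mccc2 and Oxct1 were among these members each time. The members whose groups do not overlap numbered 10, and between 10 and 17 with a library left out (16 without control 2 and 17 without control 3, beside 42.9% and 33.5% of all genes), where smaller groups separate more easily. Some then lay lower, Acaa1a and Acadl without control 2, Acad8 without control 3, and Hadha and Hadhb without PM2.5 library 1. The median log2 fold change of the members was 0.19 and ran from 0.05 to 0.27 with a library left out and from 0.14 to 0.20 in the other settings. The labels do not say that same-numbered libraries are paired. Their deviations from the group means correlated at -0.32, 0.114 and -0.104, and 1 of the 6 libraries correlated best with its own number. With the replicate block, 1 gene and 0 members changed, and 7 members had an unadjusted edgeR p below 0.05, beside 14.5% of all genes. In that fit the members' median was 0.15 and the edgeR adjusted p of Bcat2 was 0.158. Of 663 log2 fold changes of the 39 members over 17 alternatives, none turned a called direction, 8 lost the call (Bcat2 each time), 4 gained one with DESeq2, and 44, all from uncalled members, changed sign.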
